A study of Mus musculus with 947 samples.

Results

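The Hox gene clusters of the mouse hold a small set of miRNA genes, and the values of 6 mature miRNAs from them were followed across tissues, ages, sexes and parabiosis groups: mmu-miR-10a-5p, mmu-miR-10b-5p, mmu-miR-196a-5p, mmu-miR-196a-2-3p, mmu-miR-196b-5p and mmu-miR-615-3p, written without the species prefix from here on. They are defined by name and gene position, with no threshold on a measured value, among 1076 miRNAs in the table of the aging cohort and 795 in that of the parabiosis cohort, and all 6 were present in both. The aging cohort (Tabula Muris Senis) supplied 768 usable libraries from 16 tissues of untreated C57BL/6JN mice. Animals of both sexes were sampled at 8 ages between 1 and 21 months, and only males at 24 and 27 months, so 552 libraries were male and 216 female. Each combination of tissue and age was represented by between 1 and 6 of them. Sequencing depth ran from 2.29 to 166.9 M aligned reads per library with a median of 20.1 M, and from 9.198 to 47.61 M in the parabiosis cohort.

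The parabiosis cohort comprised 176 libraries, taken from GAT (gonadal fat), MAT (mesenteric fat), heart, kidney, limb muscle and liver, 6 tissues in all. They came from 30 male mice surgically joined for 5 weeks in 15 pairs, 8 isochronic and 7 heterochronic. Isochronic young mice (IY) were 4 animals of 3 months and 4 of 4.5 months, and isochronic aged mice (IA) were 8 animals of 19 months. Heterochronic young mice (HY) were 7 animals of 4 months, all of a strain other than that of the IY mice. Heterochronic aged mice (HA) were 7 animals of 19 months. Of these groups both IA mice of pair 19 and the HA mouse of pair 20 were of one of the strains C57BL/6J and C57BL/6JN, and the IY and the remaining IA and HA mice were of the other. The sample sheet of the study gives C57BL/6JN for those 3 mice and its reporting summary C57BL/6J, so which strain was which is unsettled here. Parabiosis, strain and the small age gap cannot be told apart between HY and IY.

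The Hox clusters encode transcription factors whose order along the chromosome follows their domains along the head-to-tail axis of the embryo. Genes at the 3′ end of a cluster act from the hindbrain backwards, and genes at the 5′ end act in the trunk, the hind limbs and the urogenital tract. Many adult cells, fibroblasts and fat cell precursors among them, keep the Hox pattern of the position at which they arose. The miRNAs of the clusters are known to act on Hox messages themselves. MiR-196 cleaves and represses Hoxb8, miR-10 acts on Hox genes towards the 3′ end of the clusters and on genes of cell adhesion and migration, and miR-615 is a mammalian miRNA read from inside Hoxc5.

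The mature sequences of the members were taken from RefSeq (GRCm38.p6) and are shown because the pairs differ by so little that sequence bears on how reads were counted. All 6 members and the 8 related miRNAs described alongside them were found there. Capitals mark the seed, bases 2 to 8 from the 5′ end, with which a miRNA pairs to its targets.
miR-10a-5p: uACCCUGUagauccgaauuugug
miR-10b-5p: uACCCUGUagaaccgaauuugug
miR-196a-5p: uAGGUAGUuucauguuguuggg
miR-196b-5p: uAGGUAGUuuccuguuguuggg
miR-196a-2-3p: uCGGCAACaagaaacugccuga
miR-615-3p: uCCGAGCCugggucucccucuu
Both miR-10 members shared their seed, and so did miR-196a-5p and miR-196b-5p, so that the 6 members fell into 4 seed groups. Positions are counted from 1 at the 5′ end. MiR-10a-5p differed from miR-10b-5p by the single substitution U12A, and miR-196a-5p from miR-196b-5p by A12C. The authors mapped reads with up to 1 mismatch allowed, so a read of one member of such a pair could be assigned to the other. The rate at which this happened was not measured directly, but liver bounds it for miR-10a-5p reads assigned to miR-10b-5p. Against a median of 156 rpmm (the deposited unit, mapped reads scaled by library size) of miR-10a-5p, liver held 2.00 rpmm of miR-10b-5p. Assignment of miR-10b-5p reads to miR-10a-5p is not bounded by these values.

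Their genes lie in all 4 Hox clusters (GRCm38, GENCODE vM21). Mir10a is at chr11:96317165-96317274 on the plus strand in the HoxB cluster, 11043 bases past Hoxb5 and 992 bases before Hoxb4. Mir10b is at chr2:74726070-74726137 on the plus strand in the HoxD cluster, within introns of Hoxd3 and Hoxd4. MiR-196a-5p is encoded by 2 hairpins, Mir196a-1 at chr11:96265164-96265265 on the plus strand, 6191 bases before Hoxb9, and Mir196a-2 at chr15:102973350-102973434 on the plus strand of the HoxC cluster, between Hoxc10 and Hoxc9. Mir196b is at chr6:52230081-52230165 on the minus strand in the HoxA cluster, inside Hoxa9 and 1031 bases from Hoxa10. Mir615 is at chr15:103014910-103015001 on the plus strand, in an intron of Hoxc5. The miR-10 genes thus sit among the 3′ to middle Hox genes and the miR-196 genes among the 5′ genes.

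The labelled tissues carried their own defining miRNAs. For 8 tissues of the aging cohort 16 defining miRNAs were checked, such as miR-122-5p for liver, miR-208a-3p for heart and miR-206-3p for limb muscle, and each had its highest median in its own tissue, as did the 3 checked in the parabiosis cohort. The white fat depots, kidney, lung, spleen, bone and marrow have no such miRNA on the list. By their whole profile 14 libraries lay nearer to another tissue than to their own: 4 of mesenteric fat, 3 of subcutaneous fat, 2 of bone, 1 of pancreas and 1 of skin in the aging cohort, and 3 of mesenteric fat in the parabiosis cohort. Leaving them out gave 46 of 54 tissue calls of the members in the aging cohort and 16 of 18 in the parabiosis cohort, the numbers obtained with them, and moved the calls between the sexes from 4 to 7 and those at later ages from 10 to 12. In bulk tissue, fewer cells of a type and less RNA per cell cannot be told apart. No 2 libraries of a group agreed within sampling noise, and nothing in the labels ties libraries of different tissues of the aging cohort to 1 mouse. P-values measure the spread between the libraries of a group.

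MiR-10a-5p was present in every tissue and was the most widespread member. Its tissue medians ran from 10.02 rpmm in brain to 1864 in kidney and lay at 100 rpmm or more in 11 of 16 tissues. Kidney stood above the next tissue, lung (762 rpmm, range 129 to 2075), by 1.199 ± 0.17 (SE) on the log2(rpmm + 1) scale. Below lung came mesenteric fat (MAT, 628), gonadal fat (GAT, 428), small intestine (366) and subcutaneous fat (SCAT, 308), and no neighbours in this stretch differed by the test used throughout for tissues (limma, Benjamini-Hochberg adjusted p under 0.05). SCAT lay above brown fat (BAT, 219), while no neighbours differed from BAT through liver, skin and marrow (129) to spleen (111). Spleen lay above bone (77.8), and no neighbours differed from bone through limb muscle (77.3) to heart (67.9). The low end was pancreas (20.6) and then brain, each lower than the tissue before it.

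MiR-10b-5p had nearly the same sequence and a different distribution. Kidney (755 rpmm) and GAT (508) led and did not differ from each other, with SCAT (337), MAT (251) and skin (224) next. It was scarce in lung (14.8), spleen (7.20), marrow (5.19) and liver (2.00), tissues in which miR-10a-5p was plentiful. The ratio of miR-10a-5p to miR-10b-5p within a library, which is free of the scaling between libraries, therefore ran over a wide span. Its median was 73.4 in liver (range 26.1 to 600.5), 50.5 in lung, 23.04 in marrow and 16.8 in spleen. It fell to 2.34 in kidney, 0.935 in limb muscle, 0.867 in SCAT, 0.820 in GAT and 0.589 in skin. All libraries of liver, lung, marrow, spleen, small intestine, heart, kidney and MAT lay above 1, against 2 of 37 in GAT and 2 of 47 in skin. The highest skin ratio, 89.8, came from the library that lay nearest to liver by its whole profile.

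**Figure D1:**
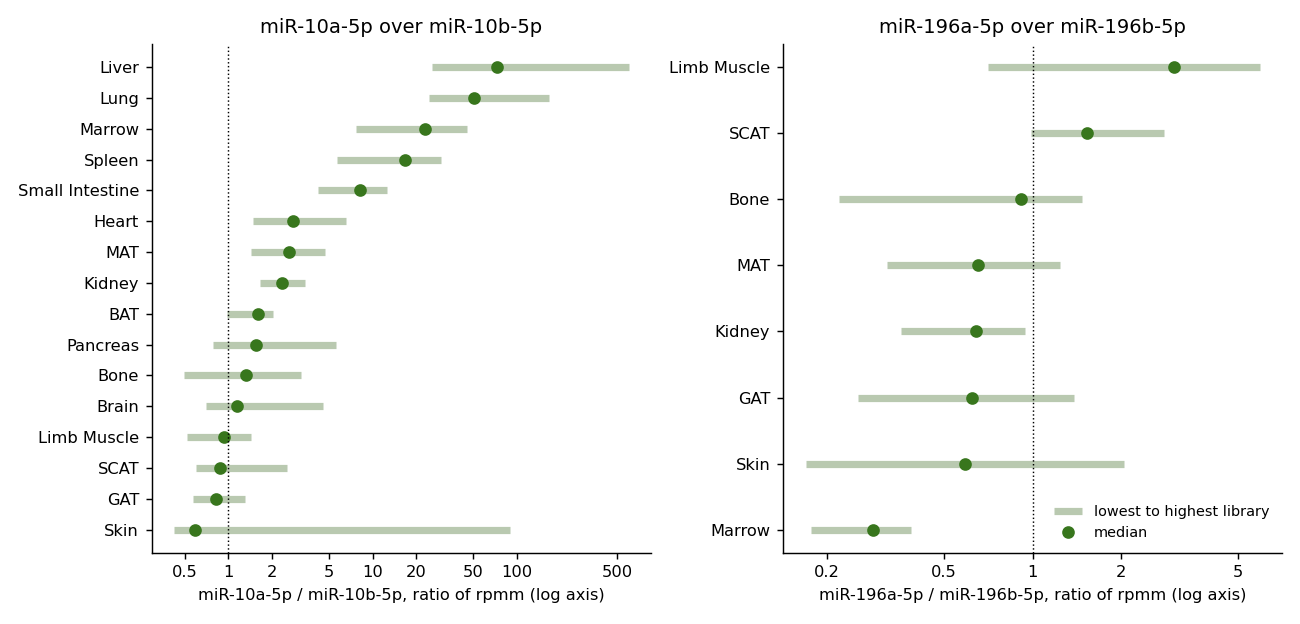
Ratio of paired miRNAs within each library of the aging cohort on a log axis, with miR-10a-5p over miR-10b-5p in 16 tissues and miR-196a-5p over miR-196b-5p in 8 tissues, bars from the lowest to the highest library and points at the median. The miR-10 ratio falls from a median of 73.4 in liver to 0.589 in skin, and the miR-196 ratio is highest in limb muscle (3.03) and SCAT (1.52).

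The miR-196 members had a much narrower distribution. MiR-196a-5p reached medians of 1527 rpmm in limb muscle (range 167 to 5958), 1455 in kidney and 1416 in SCAT, which did not differ from each other, and 511 in bone. Then came GAT (88.9), marrow (71.3), MAT (19.8), skin (10.4) and spleen (4.58), each below the tissue before it. The other 7 tissues, BAT, pancreas, small intestine, heart, liver, lung and brain, lay between 1.03 and 2.15 rpmm, and no neighbours among them differed. A count of 3 reads corresponded to 0.12 to 0.36 rpmm at the median depth of these tissues, so the medians lay above that floor. That floor covers counting error only. In the parabiosis cohort the medians of heart and liver were 0.122 and 0.0457 rpmm. The source of these low levels was not tested. MiR-196b-5p followed with 2176 rpmm in kidney, 916 in SCAT, 636 in bone, 532 in limb muscle, 264 in marrow and 144 in GAT, and with 1.19 rpmm in brain at the low end. Across the 16 tissue means on the log2 scale the correlation of miR-196a-5p with miR-196b-5p was 0.967, a pair whose reads can be exchanged at 1 mismatch.

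**Figure D2:**
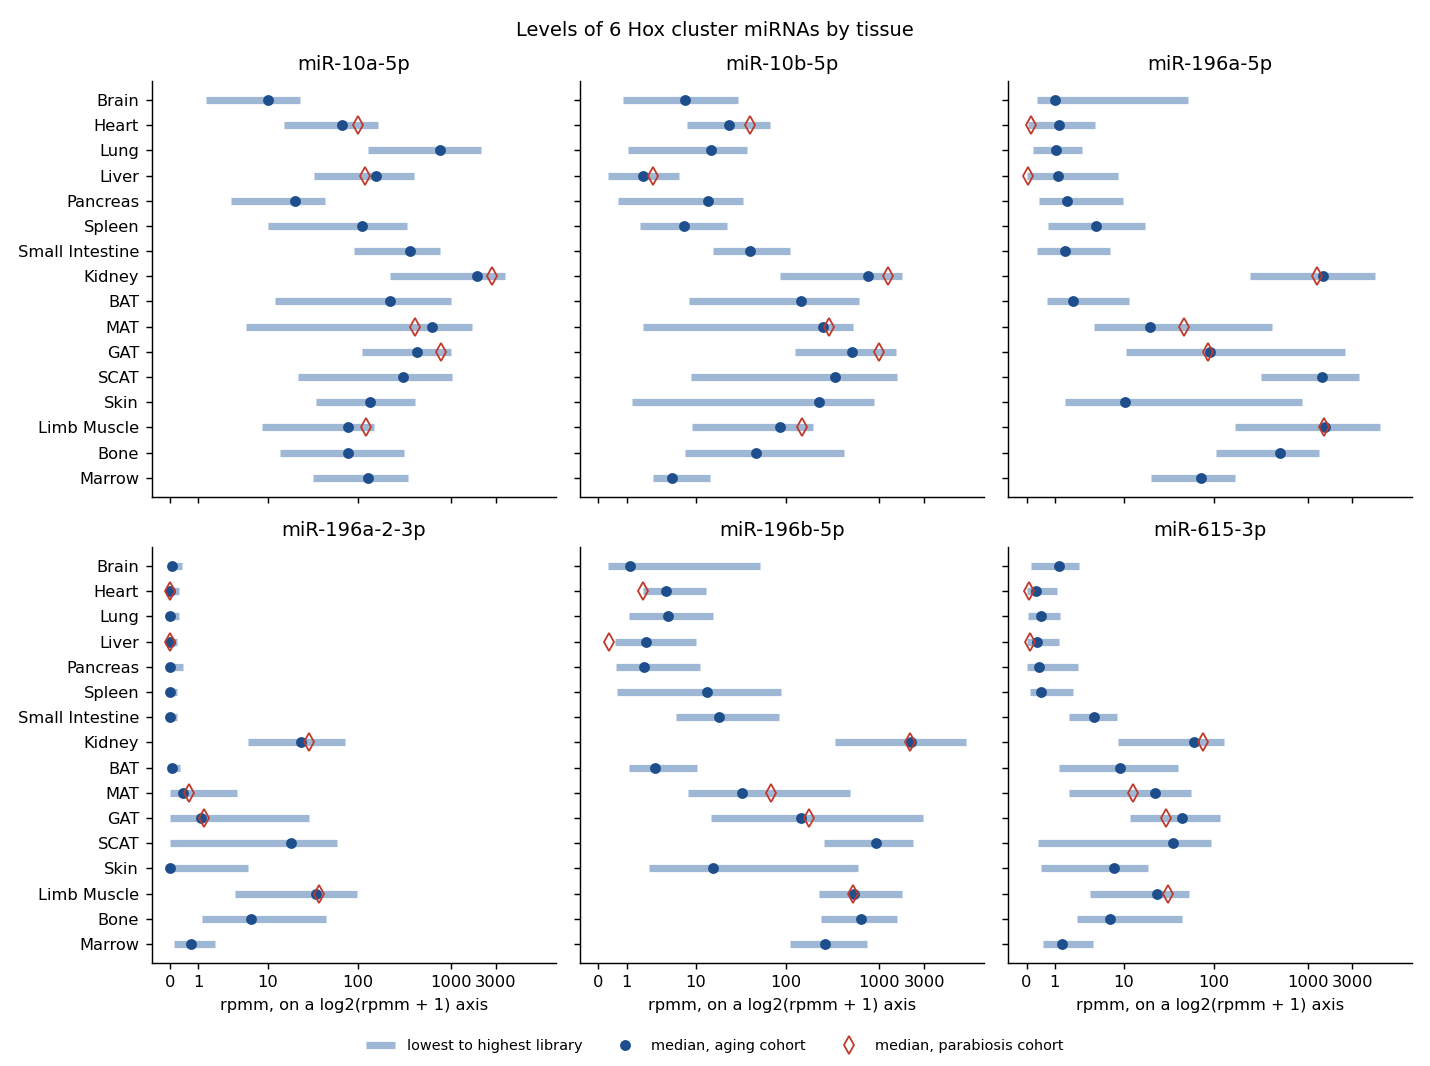
Level of each of the 6 members in log2(rpmm + 1), 1 panel a member, in the 16 tissues of the aging cohort (bars from the lowest to the highest library, dots at the median) with the parabiosis median as a diamond where that tissue was sampled. MiR-10a-5p is above 10 rpmm in every tissue, whereas the miR-196 members are high in kidney, limb muscle, SCAT and bone and near 1 rpmm in brain and liver.

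The balance within the miR-196 pair moved with tissue as well. The median ratio of miR-196a-5p to miR-196b-5p was 3.03 in limb muscle, 1.52 in SCAT, 0.910 in bone, 0.643 in kidney and 0.288 in marrow. In limb muscle 45 of 47 libraries were above 1, in SCAT 43 of 44, and in kidney 0 of 51 and in marrow 0 of 56. The passenger strand miR-196a-2-3p, which is read from the HoxC copy alone, was highest in limb muscle (34.8 rpmm), kidney (24.0), SCAT (18.4) and bone (6.25). Its counterpart from the HoxB copy, miR-196a-1-3p, reached a median of only 0.184 rpmm in any tissue, in kidney. Strands of different hairpins are kept at different rates, so these levels do not divide miR-196a-5p between its loci. The other strand of Mir196b, miR-196b-3p, was highest in kidney at 2.21 rpmm.

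MiR-615-3p was the scarcest of the guide strands. Its medians were 60.1 rpmm in kidney and 45.1 in GAT, which did not differ, followed by SCAT (35.2), limb muscle (23.7) and MAT (22.8). It stayed under 1 rpmm in lung, spleen, pancreas, liver and heart (0.260). Although Mir615 and Mir196a-2 lie in the same cluster, miR-615-3p was closer in its tissue profile to miR-10b-5p (r = 0.920 over 16 tissue means) than to any other member. The correlation of miR-10a-5p with miR-10b-5p was 0.554 and with miR-196a-5p 0.328. These are descriptions over tissue means of the same libraries.

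Among 491 other miRNAs with at least 10 rpmm in some tissue, the nearest profiles were looked up for each member. For miR-10a-5p these were miR-28a-3p (r = 0.843), miR-339-3p (0.778) and miR-28a-5p (0.771). For miR-10b-5p they were miR-193b-3p (0.682), miR-365-3p (0.679) and miR-320-3p (0.663), and miR-615-3p had miR-365-3p (0.681) and miR-193b-3p (0.630) in front as well, followed by miR-708-5p (0.607). The miR-196 members had no close neighbour outside the Hox clusters: the best were miR-339-5p for miR-196a-5p (0.472) and for miR-196b-5p (0.589), and miR-483-5p for miR-196a-2-3p (0.463).

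Pairs of related tissues from different body positions were then compared. Limb muscle, here the tibialis anterior of the lower hind limb, and heart are both striated muscle. MiR-196a-5p was 9.28 ± 0.19 log2 units higher in limb muscle than in heart, miR-196b-5p 6.57 ± 0.19, miR-196a-2-3p 5.09 ± 0.12, miR-615-3p 4.31 ± 0.12 and miR-10b-5p 1.64 ± 0.18. For miR-10a-5p the difference of 0.07 ± 0.17 did not pass the test (adjusted p = 0.766). A tissue call required an adjusted p under 0.05 and at least a 2-fold difference, and 21.1% of all miRNAs met it in this contrast (187 of 885), 5.99% with the higher level in limb muscle. The parabiosis cohort gave 10.40 ± 0.25 for miR-196a-5p and 7.44 ± 0.27 for miR-196b-5p (23.2% of 729 miRNAs called).

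In the parabiosis libraries miR-196a-5p had a median of 1514 rpmm in limb muscle and 0.122 in heart, where the aging cohort held 1527 and 1.24. In liver the medians were 0.0457 and 1.19 rpmm in the same order. The tables of the cohorts were made separately, so these values are set side by side without a test.

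The 4 fat depots lay far apart for the miR-196 members. Relative to interscapular BAT, miR-196a-5p was higher by 8.58 ± 0.23 log2 units in SCAT, 5.50 ± 0.24 in GAT and 3.14 ± 0.22 in MAT, and miR-196b-5p by 7.69 ± 0.22, 5.74 ± 0.23 and 3.43 ± 0.22. MiR-10b-5p rose by 1.94, 2.69 and 1.48 and miR-615-3p by 1.82, 2.40 and 1.29 in the same order. MiR-10a-5p was higher by 1.18, 1.82 and 2.24, and its SCAT value is the single tissue difference of the aging cohort that changed sign with the scaling of libraries (−0.18, adjusted p = 0.267, with median-ratio scaling). With that scaling the MAT values of miR-10b-5p and miR-615-3p fell to 0.26 (adjusted p = 0.117) and 0.19 (adjusted p = 0.134), and their SCAT values (0.59 and 0.55) and the GAT value of miR-10a-5p (0.32) fell under the 2-fold threshold. The median of all miRNAs was itself higher than in BAT by 0.37, 0.40 and 0.39, and 30.3%, 34.9% and 34.2% of 885 miRNAs were called. The study's dissection notes place SCAT at the inguinal pad and its overview of tissues assigns the inguinal depot to GAT, so the depots are named here as the labels name them.

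GAT and MAT are both abdominal, and 8.81% of miRNAs differed between them. GAT was higher for miR-196a-5p (2.35 ± 0.21), miR-196b-5p (2.31 ± 0.21), miR-196a-2-3p (1.24 ± 0.13), miR-10b-5p (1.22 ± 0.20) and miR-615-3p (1.11 ± 0.13), and miR-10a-5p did not pass the test (−0.42 ± 0.19). The miR-196 values of GAT joined libraries of both sexes, which differed as described further on. In the males of the parabiosis cohort GAT exceeded MAT by 1.95 ± 0.18 for miR-10b-5p, 1.72 ± 0.27 for miR-196b-5p, 1.45 ± 0.17 for miR-615-3p, 1.32 ± 0.19 for miR-10a-5p and 1.01 ± 0.26 for miR-196a-5p (13.6% of miRNAs called). The value of miR-10a-5p was thus of the opposite sign to that of the aging cohort, and it fell under 2-fold with edgeR (0.92) and both other scalings (0.88 and 0.98). The value of miR-196a-5p was −0.08 (adjusted p = 0.837) when the recovered reads were fitted with edgeR.

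Bone and marrow came from the same femurs and tibiae. Bone held more miR-10b-5p (2.96 ± 0.18), miR-196a-5p (2.83 ± 0.19), miR-196a-2-3p (2.13 ± 0.11), miR-615-3p (1.73 ± 0.12) and miR-196b-5p (1.30 ± 0.19), and the value for miR-10a-5p was −0.91 ± 0.17, under the 2-fold threshold (27.6% of miRNAs called). Spleen and marrow, both rich in blood cells, differed by −3.69 ± 0.18 for miR-196a-5p and −4.13 ± 0.18 for miR-196b-5p, lower in spleen, while miR-10a-5p and miR-10b-5p did not pass the test (14% called). All 6 members were higher in kidney than in liver, from 3.39 ± 0.17 for miR-10a-5p to 9.42 ± 0.19 for miR-196b-5p (24% of miRNAs called, 18.9% higher in kidney), and the parabiosis cohort gave 4.70 ± 0.19 to 10.53 ± 0.27 (48.6% called, 44.3% higher in kidney). All 6 were lower in brain than in the mean of the other 15 tissues, from −1.31 ± 0.08 for miR-196a-2-3p to −4.32 ± 0.14 for miR-196b-5p (47.1% called, 13.1% lower in brain).

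Altogether 46 of 54 member contrasts were called in the aging cohort, 38 of them upward, and 16 of 18 in the parabiosis cohort. Over all 120 pairs of the 16 tissues, miR-196b-5p was called in 100, miR-10b-5p in 98, miR-196a-5p in 94, miR-10a-5p in 87, miR-615-3p in 86 and miR-196a-2-3p in 61, where 31.5% of all tests of miRNAs over these pairs were called. Over the 15 pairs of the parabiosis cohort it was 15 for miR-196b-5p, 13 each for miR-10b-5p, miR-196a-5p and miR-615-3p, 12 for miR-10a-5p and 10 for miR-196a-2-3p, beside 35.3% of all tests.

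Relatives of miR-10 served as a comparison, since their genes lie outside the Hox clusters. Their seed, ACCCGUA, lacks a U of the miR-10 seed, ACCCUGU. They are shown to be set against the miR-10 sequences above.
miR-99a-5p: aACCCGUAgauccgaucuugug
miR-99b-5p: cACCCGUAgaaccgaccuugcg
miR-100-5p: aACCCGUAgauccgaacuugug
Their order of tissues was another one. MiR-99a-5p was highest in heart (1796 rpmm), miR-99b-5p in lung (238) and miR-100-5p in brain (116), the tissue in which both miR-10 members were at or near their lowest. In limb muscle against heart, miR-99a-5p (−1.63) and miR-99b-5p (−1.43) were lower. Of the 63 tissue contrasts of these relatives and the other arms of the members' hairpins, 30 were called, 26 of them upward. Taken alone, miR-99a-5p, miR-99b-5p and miR-100-5p were called in 5, 7 and 4 of 9 contrasts each. Over the 120 tissue pairs these 3 were called in 69, 75 and 71, beside 31.5% of all tests and 61 pairs for the member miR-196a-2-3p. Frequent tissue calls were thus not particular to the members.

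Long noncoding RNAs of the clusters were read as fragments by this small-RNA protocol. Gm53, which lies between Hoxb13 and Mir196a-1 at chr11:96251105-96264868 on the plus strand, was highest in marrow, with a median of 193.7 rpmm for its leading transcript, followed by bone (126.7) and BAT (105.0). It was thus high in BAT, where miR-196a-5p had 2.15 rpmm. Hotair, at chr15:102944062-102947730 on the minus strand, had its highest median in BAT at 6.37 rpmm. Hottip was mostly under the level of 3 reads.

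Among the member tests other than those between tissues, the largest differences were those between the sexes in GAT. Female libraries held 508 to 2529 rpmm of miR-196a-5p with a median of 1296 (13 libraries), and male libraries 10.51 to 213 with a median of 52.01 (24 libraries). MiR-196b-5p ran from 588 to 2938 in females with a median of 1492, and from 14.9 to 353 in males with a median of 92.3. MiR-196a-2-3p ran from 5.01 to 29.1 in females with a median of 16.5, and from 0 to 3.12 in males with a median of 0.779. For each of the 3 miRNAs every female library lay above every male library.

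**Figure D3:**
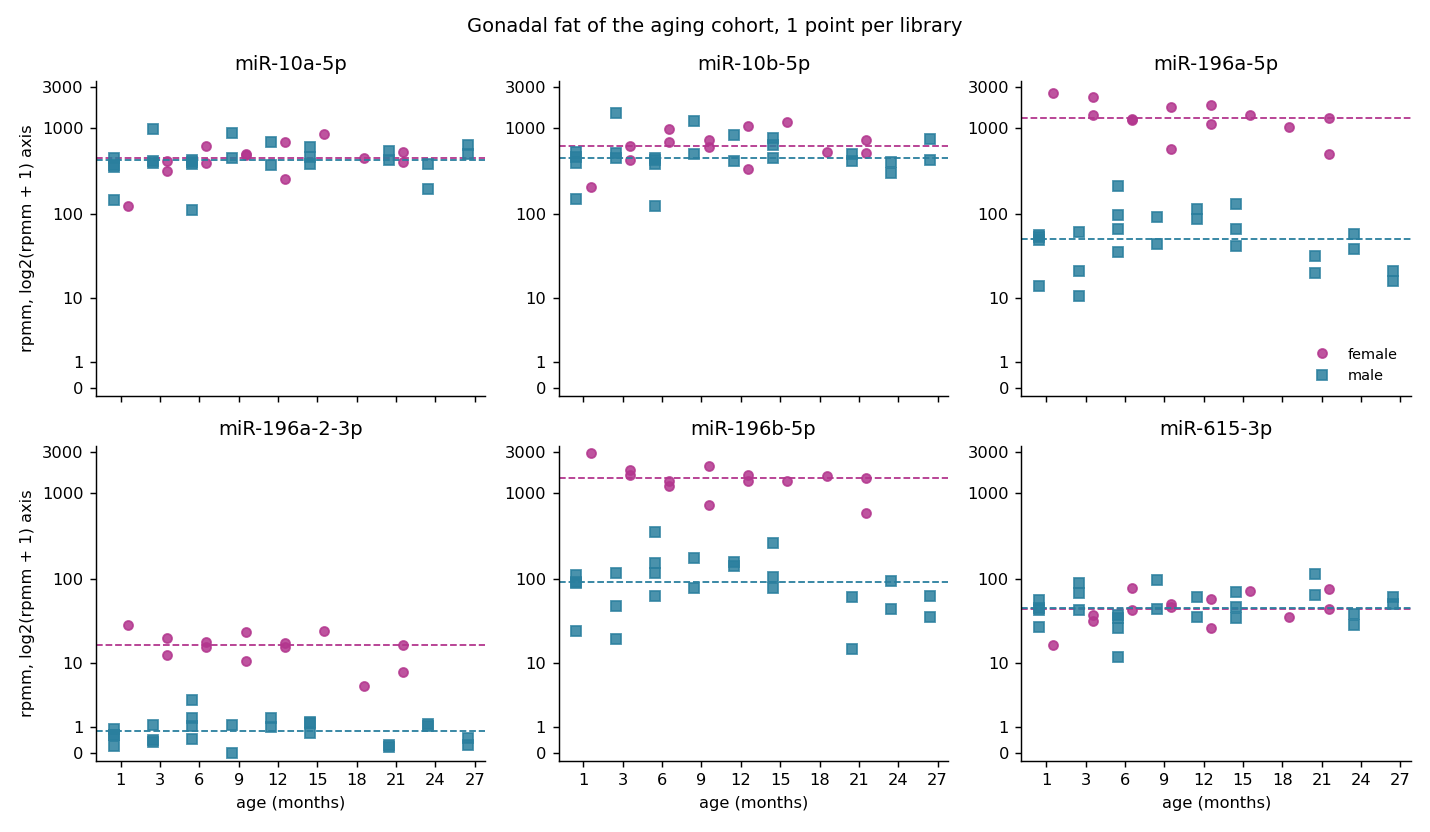
Level of each member in GAT in log2(rpmm + 1) against age in months, 1 point a library, coloured by sex with the median of each sex as a dashed line. The 3 miR-196 panels show female and male libraries without overlap (medians of 1296 and 52.01 rpmm for miR-196a-5p), and the miR-10 and miR-615-3p panels show them mixed.

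With age as a factor and libraries of 1 to 21 months, females exceeded males by 4.69 ± 0.31 log2 units for miR-196a-5p (limma, adjusted p = 6.42e-15), 4.06 ± 0.31 for miR-196b-5p (adjusted p = 7.26e-13) and 3.40 ± 0.18 for miR-196a-2-3p (adjusted p = 1.26e-17). Out of 600 miRNAs tested in GAT these were the 3 with the largest difference. In all 59 miRNAs were called (9.83%), 33 of them higher in females (5.5%). The next were miR-206-3p (2.96 ± 0.40), a miRNA of skeletal muscle, and miR-135a-5p (−1.94 ± 0.57), named after their values were seen. MiR-196b-3p also rose (1.29 ± 0.12). MiR-10a-5p (−0.12), miR-10b-5p (0.23) and miR-615-3p (−0.19) did not pass the test, so that all called arms were those of miR-196 hairpins. The ranges of the cluster lncRNAs overlapped between the sexes: Gm53 ran from 21.4 to 90.3 rpmm in females and from 14.1 to 105 in males, and the medians of Hotair were 0.936 and 0.948.

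The sex difference of GAT was itself set against that of the other tissues in 1 fit over all of them, chosen after the values were seen. It exceeded the mean of the other 15 tissues by 4.70 ± 0.30 for miR-196a-5p (adjusted p = 1.19e-43), 4.05 ± 0.31 for miR-196b-5p and 3.25 ± 0.18 for miR-196a-2-3p, with 5.8% of 880 miRNAs called. Elsewhere the medians of miR-196a-5p in females and males were 1007 and 1505 rpmm in SCAT, 19.3 and 22.01 in MAT, 1539 and 1399 in kidney and 1276 and 1593 in limb muscle, with overlapping ranges. Restricting GAT to 3 to 21 months gave 4.52, 3.90 and 3.29 for the 3 miRNAs.

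Through this difference the place of GAT among the fat depots depended on sex. In females SCAT and GAT did not differ in miR-196a-5p (SCAT minus GAT −0.41, adjusted p = 0.400), and GAT exceeded MAT by 5.62. In males SCAT exceeded GAT by 4.87, and GAT exceeded MAT by 0.61, under the 2-fold threshold. Against BAT, GAT was higher by 8.43 in females and by 3.90 in males.

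**Figure D4:**
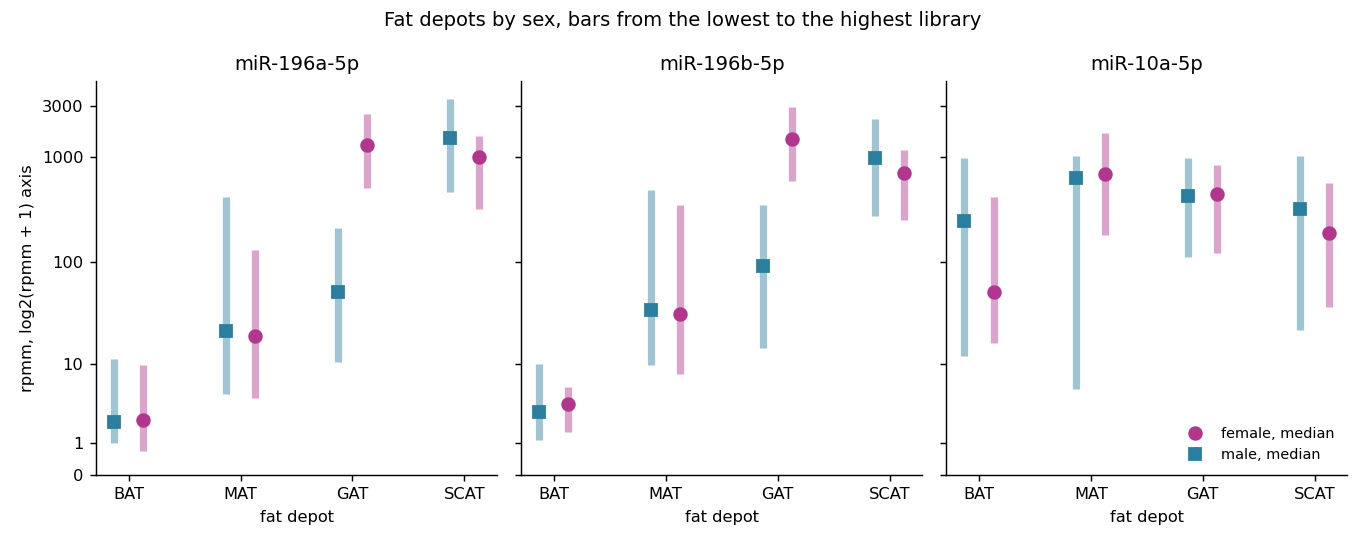
MiR-196a-5p, miR-196b-5p and miR-10a-5p in the 4 fat depots of the aging cohort by sex in log2(rpmm + 1), bars from the lowest to the highest library and markers at the median. Female GAT reaches the level of SCAT for miR-196a-5p (medians 1296 and 1007 rpmm) and male GAT lies near MAT (52.01 and 22.01 rpmm), whereas the ranges of the sexes overlap in BAT and MAT.

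Markers of other tissues in GAT were read beside this result. MiR-206-3p had medians of 85.4 rpmm in females (16.9 to 356) and 11.3 in males (0.105 to 45.6), and the sum of the striated muscle miRNAs miR-1a-3p and miR-133a-3p was 1006 to 5206 in females and 318 to 1909 in males. Expressed as a share of the limb muscle median, miR-206-3p of female GAT stood at 4.31% and miR-133a-3p at 0.701%, whereas miR-196a-5p stood at 84.9%. As a share of the SCAT median of the same sex, the 3 stood at 193%, 61.7% and 129% in females and at 12.04%, 19.94% and 3.46% in males, so that all 3 were nearer to SCAT in females. The sum of 5 epithelial miRNAs had medians of 102 and 214 rpmm in females and males, that of 4 white blood cell miRNAs 2102 and 2410, and that of 5 testis and epididymis miRNAs 60.9 (30.4 to 88.5) and 64.9 (30.8 to 556). In the same order fibroblast medians were 4851 and 3804 (miR-199a-3p), 283 and 174 (miR-199a-5p) and 256 and 142 (miR-214-3p). Smooth muscle medians were 58325 and 35412 (miR-143-3p) and 4077 and 3198 (miR-145a-5p). Endothelial medians were 8615 and 12152 (miR-126a-3p) and 1572 and 2655 (miR-126a-5p). Brown fat medians were 126 and 67.2 (miR-193b-3p), 21.9 and 13.5 (miR-455-3p) and 1146 and 1277 (miR-365-3p). The ranges of the sexes overlapped for each. The part of cell composition beyond these values was not tested, and whether the pad called gonadal was taken at the same site in both sexes is not given in the sources used here.

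Outside GAT, 1 of the members' sex differences was called, miR-615-3p in SCAT at −1.05 ± 0.35 (adjusted p = 0.044), in a tissue where 11.7% of miRNAs were called and the median of all was −0.29. Female SCAT ran from 7.35 to 42.4 rpmm with a median of 18.2 and male SCAT from 0.315 to 91.8 with a median of 41.6, so the sexes overlapped. The call was lost under 6 of 9 other settings and on leaving out any of 19 of the 44 libraries. In total 4 of 84 member tests were called, beside 4.42% of all 8838 tests. Without the libraries that lay nearest to another tissue there were 7, the additions being miR-10a-5p (−0.87), miR-10b-5p (−0.83) and miR-196a-2-3p (−0.69) in SCAT, and the same 7 came from leaving out SCAT 3 months replicate 16 alone.

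Few member tests with age passed their threshold. By the study's threshold of an absolute Spearman's rho above 0.5 with age, 0 of 83 member and tissue combinations were called, where 8.07% of all 8849 combinations were. The permutation p before adjustment was under 0.05 for 21 of the 83. The share of all combinations at that level is not given here. After adjustment over the miRNAs of a tissue 7 of 83 remained under 0.05, against 18% of all combinations. They were miR-10a-5p in bone (rho = 0.479, Pearson's r = 0.491, 48 libraries), BAT (0.424 and 0.414, 31 libraries) and liver (0.384 and 0.400, 51 libraries), miR-10b-5p in bone (0.456 and 0.454), miR-196b-5p in lung (0.434 and 0.419, 55 libraries), and in spleen miR-196a-5p (−0.413 and −0.386) and miR-615-3p (0.441 and 0.362, 55 libraries). Their adjusted permutation p for rho lay between 0.0056 and 0.047. With the 2 libraries farthest from the median age left out, Pearson's r kept its sign and lay between 0.332 and 0.523 in size. After removal of plate means rho was 0.304 for BAT, 0.519 and 0.486 for bone, 0.466 for liver, 0.409 for lung, and −0.281 and 0.514 for spleen. The tests with age pooled the sexes and held no term for sex. In GAT, where miR-196 split by sex, rho over both sexes was −0.101 for miR-196a-5p. There these tests do not separate a change of miR-196 with age from the sex difference.

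Between 3 and 21 months 3 of 73 tests were called, all in small intestine and all upward, beside 3.87% of all tests. In small intestine itself 13.5% of miRNAs were called, 12.5% upward, and the median of all miRNAs was 0.22. MiR-10a-5p rose by 1.00 ± 0.34 (limma, adjusted p = 0.042), from 89.8 to 384 rpmm in the 5 libraries of 3 months and 206 to 767 in the 6 of 21 months. MiR-10b-5p rose by 1.21 ± 0.29 (adjusted p = 0.0063), from 15.7 to 46.4 rpmm at 3 months and 40.9 to 111 at 21 months. MiR-615-3p rose by 0.67 ± 0.22 (adjusted p = 0.037), from 1.83 to 4.14 rpmm at 3 months and 2.94 to 8.32 at 21 months. The groups overlapped for all 3. Only 1 call remained without any of 3 libraries of 21 months (replicates 02, 44 and 56) or 2 of 3 months (replicates 24 and 29), and none with males alone.

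Over all ages after 3 months 10 of 590 tests were called (2.78% of all tests), those 3 included. MiR-10a-5p and miR-10b-5p were lower in limb muscle at 15 months (−1.50 ± 0.54 and −1.81 ± 0.54) and higher in liver at 27 months (1.34 ± 0.42 and 0.95 ± 0.34), and miR-10a-5p was lower in skin at 6 months (−1.38 ± 0.37). The limb muscle calls were lost under 6 and 3 of 10 other settings, the liver calls under 2 of 10 and 4 of 9, and the skin call under 3 of 10. MiR-196b-5p was higher in liver at 18 months (0.98 ± 0.32) and in lung at 24 months (1.28 ± 0.35), where it rose from 2.13 to 5.47 rpmm in 6 libraries of 3 months to 5.56 to 15.9 in 4 libraries of 24 months, without overlap. Those 4 were male, as all libraries of that age are, and the lung call was lost under 6 of 9 other settings (0.92, adjusted p = 0.420, with plate as a covariate) and the liver call of 18 months under 4 of 9. Each of these calls also ended without some single library, between 1 and 7 of them. In 1-month-old mice, MAT held less miR-10a-5p (−2.76 ± 0.70) and miR-10b-5p (−2.40 ± 0.64) than at 3 months, 2 calls of 72 (1.76% of all tests). They rested on MAT 1 month replicate 21, with 5.42 rpmm of miR-10a-5p against 525 and 545 in the other 2 libraries of that age. Without it the differences were −0.63 and −0.42 and were not called.

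In the parabiosis cohort the contrast HA minus IA asks whether the members of an aged mouse changed when its partner was young. It called 2 of 29 member tests, both in GAT, beside 0.965% of all 3211 tests. In GAT 3.86% of miRNAs were called, and 4 of 621 (0.644%) were lower in HA, the members being 2 of those 4. MiR-196a-5p read 13.1, 20.5, 26.8, 37.1, 51.3, 132 and 172 rpmm in the 7 HA mice. In the 8 IA mice it ran from 48.5 to 296 rpmm with a median of 150. It was thus lower in HA by −1.76 ± 0.46 log2 units (limma, adjusted p = 0.036), and 3 of the 7 HA mice lay within the range of IA. MiR-196b-5p ran from 24.4 to 233 rpmm in HA with a median of 72.2 and from 103 to 1762 in IA with a median of 375, a difference of −2.46 ± 0.58 (adjusted p = 0.031). MiR-196a-2-3p, at −0.78 ± 0.24, had an adjusted p of 0.069.

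**Figure D5:**
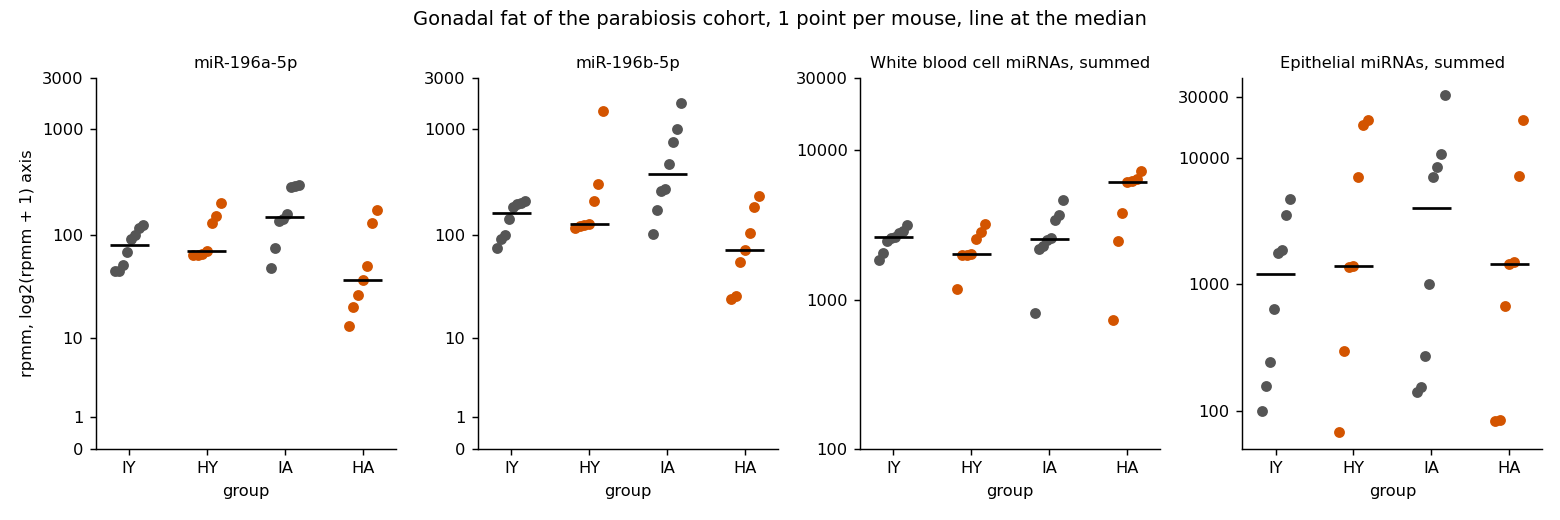
GAT of the parabiosis cohort by group (IY, HY, IA, HA), with miR-196a-5p, miR-196b-5p, the summed white blood cell miRNAs and the summed epithelial miRNAs, 1 point a mouse and a line at the median. HA lies lowest for miR-196a-5p (median 37.1 against 150 rpmm in IA) and highest for the white blood cell sum (median 6078 against 2541 rpmm), with overlap in both.

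Other markers of the same libraries differed as well. The sum of 4 white blood cell miRNAs ran from 732 to 7194 rpmm in HA with a median of 6078, and from 811 to 4628 in IA with a median of 2541. With the 4 HA libraries high in it left out, the differences were −1.13 and −1.87 with an adjusted p of 0.999 for each, and no miRNA was called. The sum of 5 epithelial miRNAs ran from 82.2 to 19770 in HA and from 140 to 31190 in IA. With the 11 libraries high in it left out, the differences were −1.75 and −1.94 (adjusted p = 0.023 for each). Leaving out any of 4 HA mice (2A, 5A, 12A, 14A) or 3 IA mice (6A, 7A, 19A) ended both calls, and leaving out IA mouse 9B or 19B ended 1 of them. Without pairs 19 and 20, which hold the 3 aged mice of the other strain, miR-196a-5p was no longer called (−1.76, adjusted p = 0.059), miR-196b-5p was (−2.66, adjusted p = 0.029), and so was miR-10a-5p in heart (−0.72, adjusted p = 0.032). The edgeR fit kept the call of miR-196b-5p and not that of miR-196a-5p (−1.47, adjusted p = 0.051).

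The young groups gave 70.5 rpmm of miR-196a-5p in HY (65.2 to 203) and 81.6 in IY (46.03 to 125) as medians, and HY minus IY was 0.35 ± 0.46 in GAT. Over all tissues HY minus IY called 0 of 29 member tests by limma and by edgeR, with 0 at an unadjusted p under 0.05, and 0 of 3211 tests were called over all miRNAs, 155 of them at an unadjusted p under 0.05. HA minus HY called 0 of 29, with 4 at an unadjusted p under 0.05, all in GAT, beside 9.81% of all tests.

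Age between isochronic mice gave 2 calls of 29, both in heart, beside 8.13% of all tests and 18.6% of those in heart. MiR-10a-5p ran from 79.9 to 244 rpmm in IA and 68.2 to 145 in IY (0.65 ± 0.21, adjusted p = 0.034), and miR-10b-5p from 37.2 to 90.6 and 23.4 to 55.5 (0.68 ± 0.22, adjusted p = 0.031). With the 4.5-month IY mice alone they were 0.58 (adjusted p = 0.207) and 0.74 (adjusted p = 0.131), and the calls ended without any of IA 6B, 7B, 9A and 9B or IY 10B, 15B, 16A and 17B. In MAT both miR-10 members and miR-615-3p moved the other way without passing the test (−1.70 ± 0.60, −1.39 ± 0.54 and −1.59 ± 0.61, adjusted p = 0.121 for each). With the joined pair as a block these 3 were called as well (−1.69, −1.36 and −1.56, adjusted p between 0.031 and 0.039), which made 5 calls in all. The share of all miRNAs called with that block is not given here, and the 8.13% belongs to the fit without it. Isochronic partners deviated in opposite directions in MAT, with r between −0.817 and −0.137 over 7 pairs. These comparisons share their IA mice with HA minus IA, in which the MAT values of miR-10a-5p and miR-10b-5p were 1.96 ± 0.64 and 1.69 ± 0.58 (adjusted p = 0.189 for each).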

How the data were processed

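Small-RNA reads were mapped by the authors with Bowtie, 1 mismatch allowed, to miRBase and other noncoding RNA sequences (the labels give mm10 as the build), and both deposited tables hold normalized signal in rpmm (mapped reads scaled by library size), not counts. Whole reads could be recovered for 98.97% of the miRNA values of the aging table and 98.84% of the parabiosis table (tolerance 0.05 reads, values up to 1000 reads), and edgeR (4.0.16) was run on them as an alternative. Of 771 columns in the aging table, 3 were not used because their names conflict with the annotation.

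Tests used limma (3.58.1, R 4.3.3, empirical Bayes with trend) on log2(rpmm + 1), a scale that understates changes of low miRNAs, over all miRNAs with at least 1 rpmm in 10% of a tissue's libraries, with Benjamini-Hochberg adjustment within tissue and contrast at 0.05. Tissue contrasts fitted tissue, age and sex (parabiosis: tissue and group) and also required 2-fold. Sex tests fitted age and sex, and age tests fitted age alone. Spearman's rho was tested two-sided with 100000 shuffles. Scripts were tested on simulated data. Floors of 3 reads and replicate spread cover counting error and library spread only. Alternatives changed the pseudocount, filter, scaling, tool, covariates and libraries. Members and lists were chosen with earlier results of these data known. Named miRNAs were the members, the other arms, the miR-99 and miR-100 relatives, Hox-cluster lncRNAs and the 3 nearest profiles per member.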

Additional observations from a re-analysis of the deposited data

Results flagged for a closer look

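In 98 groups of 4 to 10 libraries, 4 values of members stood apart from the rest of their group by Dixon's criterion. Chance gives about 1 in 20, so the number of flags, 4 in 98 groups, is no more than chance gives. That number does not tell whether any single value arose by chance. In skin at 6 months, replicate 38 read 876 rpmm of miR-196a-5p against 4.03 to 21.8 in the other 5 libraries, and it also held 11616 rpmm of miR-206-3p (816 to 2178 in the others), a skeletal muscle miRNA whose median was 1980 rpmm in limb muscle and 868 in skin. The striated muscle miRNA miR-133a-3p did not stand apart in it, at 4703 rpmm against 3430 to 8489 in the others. Nor did the sum of miR-1a-3p and miR-133a-3p, at 6993 rpmm against 5160 to 13644. In lung, miR-10a-5p was 573 rpmm in replicate 40 of 24 months, and miR-10b-5p was 2.94 rpmm in replicate 45 of 3 months. In the parabiosis cohort, miR-196b-5p was 1485 rpmm in the library GAT, HY, replicate 14B. The sum of the 5 epithelial miRNAs in it was 7009 rpmm, within the 67.5 to 19780 of the HY group. Its smooth muscle sum (miR-143-3p and miR-145a-5p) was 206593 rpmm and its endothelial sum (miR-126a-3p and miR-126a-5p) 13780, given without the range of the group.

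The difference between females and males in GAT differed from the mean difference in the other 15 tissues by 4.70 log2 units for miR-196a-5p, 4.05 for miR-196b-5p and 3.25 for miR-196a-2-3p, in a fit of the difference itself over all 16 tissues.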

How the results depend on the processing

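Tissue differences were stable: 38 to 49 of 54 member calls in the aging cohort (46 as reported) and 14 to 16 of 18 in the parabiosis cohort (16 as reported) under every alternative run. HY minus IY and HA minus HY stayed at 0. Over 843 refits of single called members with another setting and no library left out, 758 kept their direction and side of the threshold, 78 fell below it, 5 rose past it and 2 reversed: miR-10a-5p in SCAT minus BAT (−0.18, median-ratio scaling) and miR-196a-5p in parabiosis GAT minus MAT (−0.076, edgeR). The causes were not tested.

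Counts of calls over tissues moved as follows. Sex differences (4) became 2 with a mean of at least 10 rpmm, 7 without libraries closest to another tissue, and 3 to 7 with 1 library left out. Ages 21 against 3 months (3) gave 1 with no filter, 0 with males only and 1 to 5 with 1 library left out, the 5 without bone 21 months replicate 31. Ages 1 against 3 months (2) gave 0 with no filter, edgeR, plate as a covariate or males only, 1 with miRNA-read scaling or the title number set, and 0 to 5 with 1 library left out, the 5 without kidney 1 month replicate 09 and the 0 without MAT 1 month replicate 21 or MAT 3 months replicates 05, 12 or 17. Later ages (10) gave 6 with a mean of at least 10 rpmm, 5 with no filter, 6 with males only and 8 to 15 with 1 library left out. HA minus IA (2) gave 1 with edgeR, 0 without GAT libraries high in white blood cell miRNAs, an alternative chosen after seeing the data, and 0 to 3 with 1 library left out. IA minus IY (2) gave 0 with IY of 4.5 months only and 0 to 5 with 1 library left out, the 5 without MAT IY 16A. Correlation with age (0) gave 7 by adjusted p, 1 with miRNA-read scaling, 3 with median-ratio scaling, 2 with males only, 1 without the 1-month libraries, 2 without the 24- and 27-month libraries, 2 with plate means removed, and 0 to 1 with 1 library left out.

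The pair number marks mice that were joined. Partners of a heterochronic pair deviated together with r above 0.1 in all 7 pairs in liver, 6 of 7 in heart, 5 of 7 in limb muscle and 25 of 39 over all tissues, and isochronic partners in 13 of 47. With the pair number as a replicate block HA minus IA gave 3 calls (miR-196a-2-3p in GAT added, adjusted p = 0.044), IA minus IY 5, HY minus IY 0 and HA minus HY 0, in liver and heart too, and with the mouse as a block the tissue contrasts gave 16. The shares of all miRNAs called with these blocks are not given here. Depth limits values under about 0.1 to 0.4 rpmm, the level of 3 reads.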
